A study of Mus musculus with 12 samples.

Results

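Expression of 32 genes of fatty acid oxidation was followed in white adipose tissue (WAT) and liposarcoma (LPS) of Ad/NICD mice. The genes were chosen by name from the known pathway, 21 for mitochondrial and 11 for peroxisomal steps, and each was found among the 37750 rows of the deposited table. Where a symbol occurred more than once, the row with the highest mean was taken. In 3 cases (Cpt1b, Acads and Etfb) the row joins the gene with an overlapping locus, and its value cannot be assigned to the gene alone. In 7 further members the coordinates of the row reach beyond the annotated gene without another name in the row: the row is 77.2 times as long as the gene in Acadsb, 21.1 times in Acaa1a, and 1.28 to 2.83 times in Crat, Acadvl, Hadha, Eci2 and Scp2. Whether reads of neighbouring loci enter those values cannot be read from the table.

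The series sets tumours against the young fat of mice with the same transgene. Ad/NICD mice produce the intracellular domain of Notch1, the constitutively active form of the receptor, in fat cells, and liposarcomas are malignant tumours of the fat lineage. All animals were of the strain 129 x C57BL/6. The WAT group holds 4 libraries of Ad/NICD mice at 3 weeks of age, and the LPS group holds 8 libraries of Ad/NICD tumours at 9 to 12 months of age. Both groups carry the transgene, so its own effect is not among the comparisons. Fat of the age of the tumours is not among the groups either, so age and tissue cannot be told apart. The adiponectin promoter is known as background to drive Cre in this model, although the labels do not name it. Nor do they name the fat depot of the WAT samples, or say whether any tumours came from the same animal. The labels call the libraries biological replicates. Values are FPKM: sequenced fragments, per kilobase of a gene's transcript, relative to all mapped fragments. They take transcript length into account, so levels of different genes can be set side by side, while levels of different libraries depend on their scaling.

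As background, long-chain fatty acids enter mitochondria as carnitine esters and are then shortened by repeated cycles of dehydrogenation, hydration, a further dehydrogenation and thiolytic cleavage. Peroxisomes run a similar cycle on very long-chain and branched acyl chains, but their first step is an oxidase that makes hydrogen peroxide, which catalase removes. White fat mainly stores fatty acids, while brown and beige fat cells burn them for heat with the uncoupling protein Ucp1, so these enzymes are most abundant in thermogenic fat, muscle, liver and heart.

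The FPKM sums per library ran from 771665 to 996090. By the low values of 2154 single-transcript genes, relative depth ranged over 2.60 times between the shallowest library, LPS 1, and the deepest, WAT 1. LPS 5 stood apart, with a median-ratio scaling factor of 0.814 against 0.991 to 1.06 in the other libraries, so its genes read low as deposited. Its predicted gene Gm10800 held 361556 FPKM, against at most 3340 FPKM elsewhere. Mature adipocyte markers were abundant in all 4 WAT libraries, with sums between 11443 and 13878 FPKM. In the tumours the sums were 77.2 to 2044 FPKM, and 10 of 10 of these markers were called lower. Notch1 ran from 24.5 to 39.5 FPKM across WAT, and from 44.2 to 84.6 FPKM across the tumours.

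Most members fell in the tumours. In limma on log2(FPKM + 1), with p-values adjusted by Benjamini-Hochberg over all 14821 rows tested and a threshold of 0.05, 30 of the 32 members were lower in LPS and 0 were higher. The other 2, Cpt1a and Pex5, did not pass. Across all rows tested, 27.0% were called lower and 18.9% higher, and the median log2 difference was -0.05, against -2.89 over the members. In 28 members every LPS library lay below every WAT library, which held for 20.9% of all rows. The members passed the filter, at least 1 FPKM in at least 4 libraries, without exception.

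Mitochondrial members fell further than peroxisomal ones by their medians. Among the 21 mitochondrial members 20 were lower; their median log2 difference was -3.09 (-3.17 without the 3 joined rows), and the LPS mean had a median of 11.4% of the WAT mean. Of the 11 peroxisomal members, 10 were lower, with a median of -1.91 and a median of 26.6% of the WAT mean. A log2 difference of -3 or below was found in 12 mitochondrial and 3 peroxisomal members, and in 2.52% of all rows tested. A fall by less than 1 on the log2 scale was found in 4 mitochondrial and 2 peroxisomal members. These medians describe genes chosen with earlier results known and were not tested against each other. In bulk tissue, fewer cells of a type and less RNA per cell cannot be told apart.

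**Figure D1:**
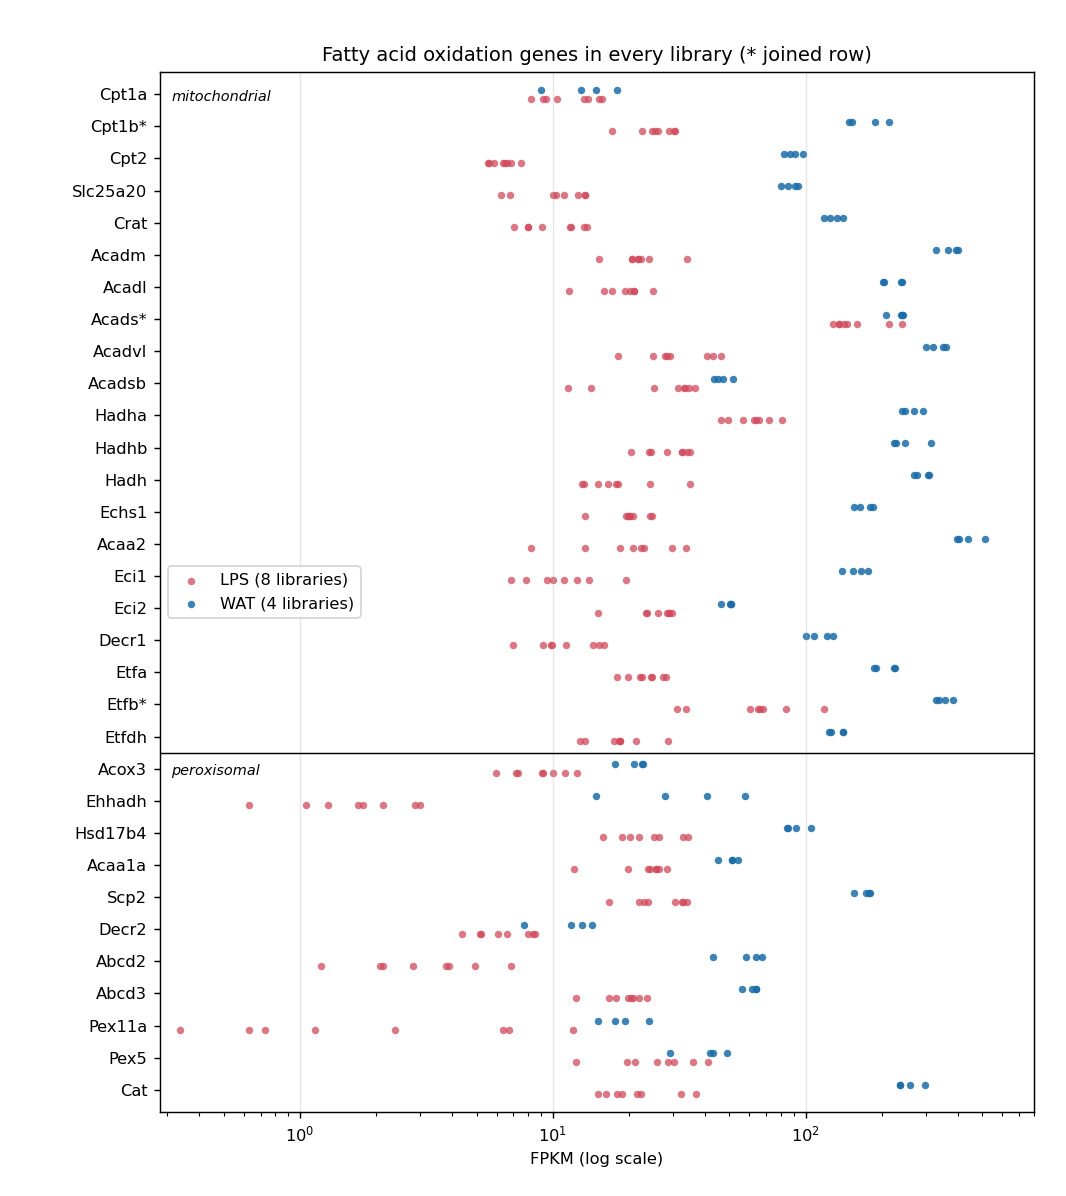
FPKM (log scale) of the 32 members, 1 point per library, with the 4 WAT libraries in blue and the 8 LPS libraries in red; mitochondrial members stand above the line and peroxisomal ones below it. The groups are apart in 28 members and overlap in Cpt1a, Acads, Decr2 and Pex5.

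**Figure D2:**
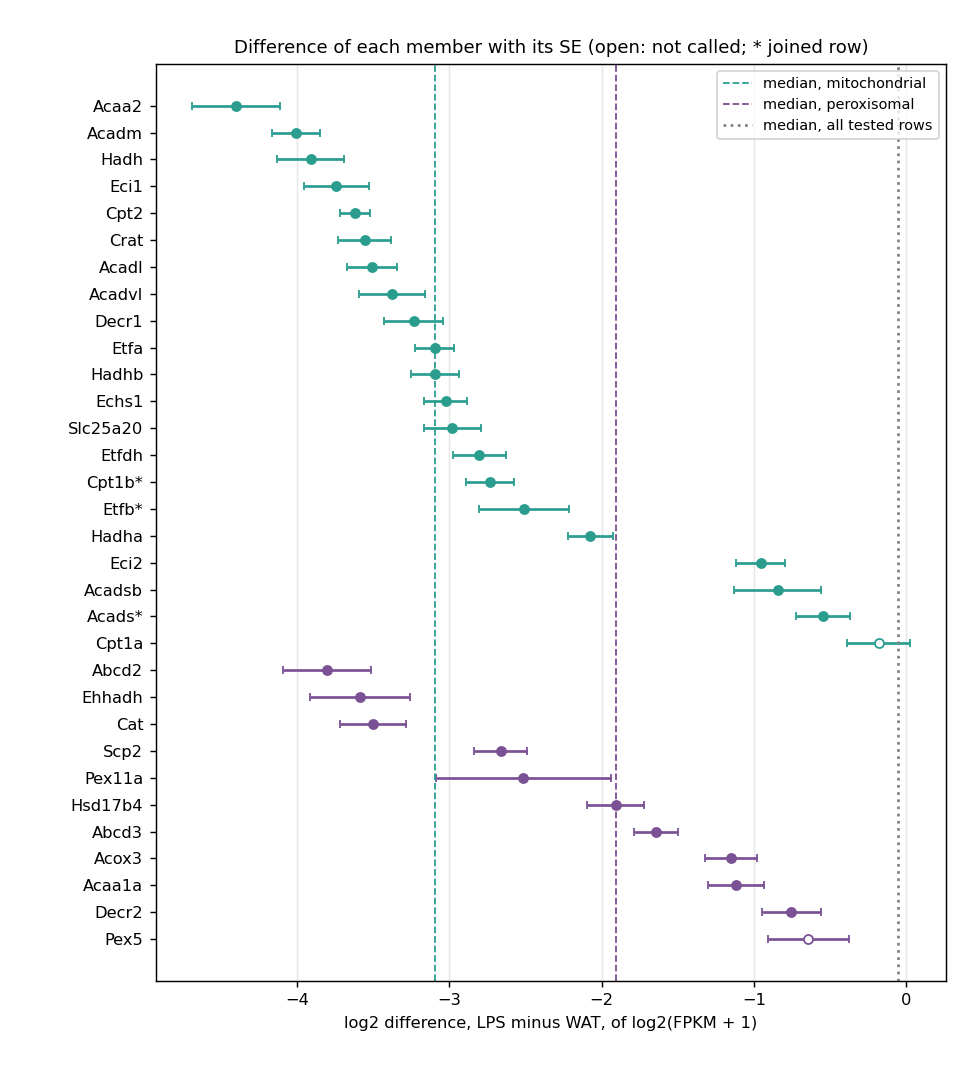
Log2 difference, LPS minus WAT, of each member on the log2(FPKM + 1) scale with its SE from limma, mitochondrial members in green and peroxisomal ones in purple, open where not called. The dashed lines mark medians of -3.09 and -1.91, and the dotted line marks the median of all rows tested, at -0.05.

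The summed levels of the compartments gave the same order. Without joined rows, the mitochondrial sum ranged between 3096 and 3709 FPKM for WAT and between 265 and 444 FPKM for LPS. The peroxisomal sum ranged between 774 and 904 FPKM for WAT and between 98.9 and 225 FPKM for LPS. The mitochondrial sum was 3.94 to 4.33 times the peroxisomal sum in WAT and 1.85 to 2.71 times in LPS, so every tumour lay below every WAT library in this ratio, which needs no scaling between libraries.

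Marker lists of other cell types differed in direction between the groups. Brown adipocyte markers, which define cells rich in mitochondria, summed to between 1922 and 2678 FPKM in WAT but at most 41.3 FPKM (lowest 7.35) in the tumours, and 5 of the 5 tested of a list of 8 were lower. Of that list, Cidea, Elovl3, Zic1 and Lhx8 were at 0 in some LPS libraries, and Zic1 was at 0 in some WAT libraries. Of the genes not tested, Elovl3 and Lhx8 had lower means in LPS than in WAT. Zic1 had a higher one, at 0.796 against 0.134 FPKM, with 5.68 FPKM in LPS 5. The part of brown or beige fat cells in the fall was not tested. Skeletal muscle markers (9 of 10 in the table, 2 lower) were uneven, with sums of 2264, 6.87, 279 and 1979 FPKM in WAT 1 to WAT 4, and between 1.46 and 564 FPKM in the tumours. In WAT 2, the WAT library with the least muscle RNA, 31 of the 32 members lay above all 8 tumours, the exception being Acads. Those 31 include Cpt1a, Decr2 and Pex5, whose groups overlap, with Cpt1a and Pex5 above by small margins. The same count was not taken over all rows, and the part of muscle RNA in the fall was not tested. Pericyte markers were 8 of 8 higher, and their sum was between 221 and 238 FPKM in WAT, against 3572 to 7842 FPKM in the tumours. Macrophage markers (4 of 8 higher, 0 lower) had sums between 201 and 292 FPKM in WAT, against 239 to 831 FPKM in the tumours. Of 7 endothelial markers, 6 were lower and 1 higher, and the sums were 265 to 400 and 123 to 243 FPKM. All 6 lymphocyte markers were lower, from 62.5 to 127 FPKM down to 0.417 to 13 FPKM, with Cd3e, Cd3g and Ms4a1 at 0 in some tumours. Epithelial markers stayed below the filter and summed to at most 11.9 FPKM in WAT, against 0.722 FPKM in the tumours. The part of these cells in the falls was not tested.

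**Figure D3:**
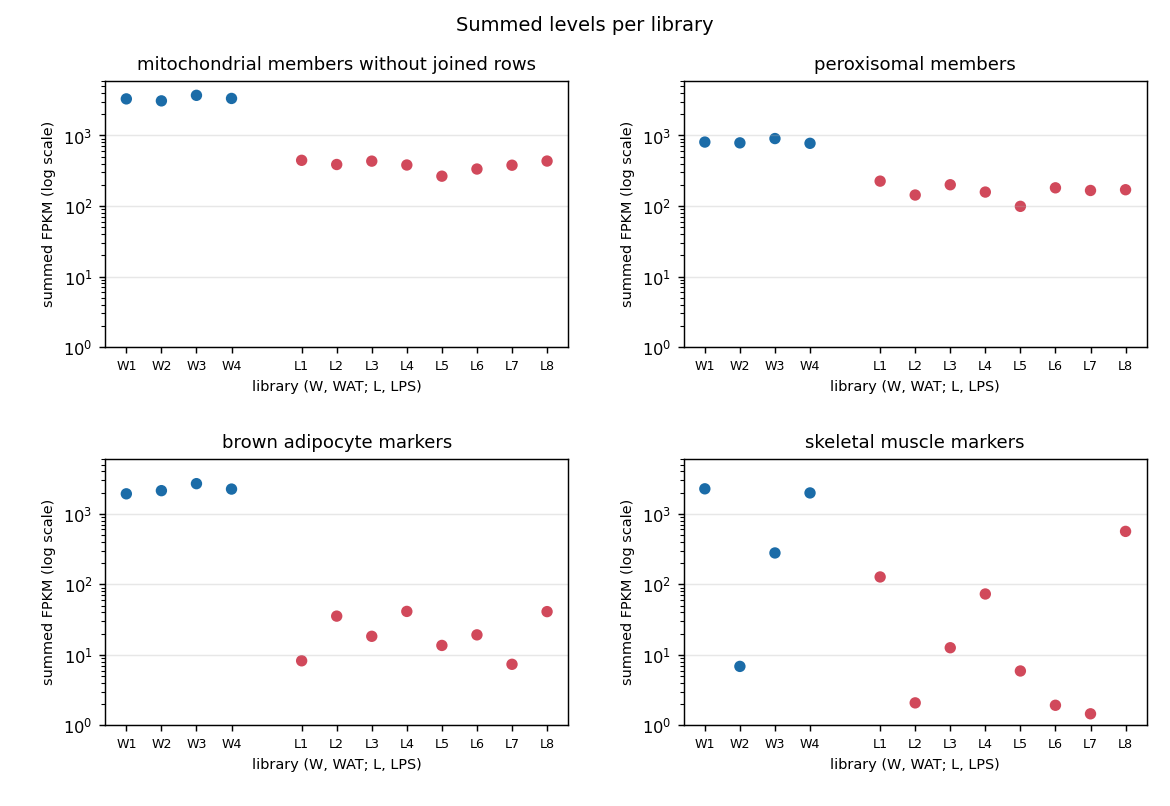
Summed FPKM (log scale) per library for the mitochondrial members without joined rows, the peroxisomal members, and the brown adipocyte and skeletal muscle marker lists, with WAT (W1 to W4) in blue and LPS (L1 to L8) in red. The member and brown marker sums are apart between the groups, while muscle markers span 6.87 to 2264 FPKM within WAT.

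Promoter sequences were searched because most members moved together. Peroxisome proliferator-activated receptors (PPARs) are nuclear receptors known to drive fatty acid oxidation genes through a direct repeat of AGGTCA with a spacer of 1 base (DR1), and oestrogen-related receptors bind an extended single copy. RefSeq promoter windows on GRCm38.p6 matched 26 of the 32 members by symbol, and the 250 bases before the start were searched on both strands. The DR1 motif (AGGTCA, any base, AGGTCA) with up to 2 mismatches was found in 3 members (11.5%), Cat, Echs1 and Etfa, against 3.72% of all 27018 genes in the table, counted the same way (a gene with the motif in any of its windows). The oestrogen-related receptor motif TCAAGGTCA was found in 0 members, against 0.422% of genes. A single AGGTCA, which the other motifs also contain, was found in 6 members (23.1%), against 15.8% of genes: Acadm, Acadvl, Cat, Cpt1a, Echs1 and Scp2. Such a match is a description of letters, not a bound site. The windows that hold the DR1 match are printed here from 5′ to 3′ in the direction of transcription, up to the start of the annotated gene, with the match in capitals, for Cat at chr2:103485161-103485403, Echs1 at chr7:140116477-140116671 and Etfa at chr9:55512244-55512493, all on the minus strand.
Cat: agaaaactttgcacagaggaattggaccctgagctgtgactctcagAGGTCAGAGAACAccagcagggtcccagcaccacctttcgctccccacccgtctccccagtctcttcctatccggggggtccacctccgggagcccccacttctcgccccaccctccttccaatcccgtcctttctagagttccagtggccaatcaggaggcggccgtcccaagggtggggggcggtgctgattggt
Echs1: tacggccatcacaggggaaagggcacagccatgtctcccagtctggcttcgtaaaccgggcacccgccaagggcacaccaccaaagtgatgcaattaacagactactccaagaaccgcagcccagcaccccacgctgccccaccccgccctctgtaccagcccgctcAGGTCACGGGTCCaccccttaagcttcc
Etfa: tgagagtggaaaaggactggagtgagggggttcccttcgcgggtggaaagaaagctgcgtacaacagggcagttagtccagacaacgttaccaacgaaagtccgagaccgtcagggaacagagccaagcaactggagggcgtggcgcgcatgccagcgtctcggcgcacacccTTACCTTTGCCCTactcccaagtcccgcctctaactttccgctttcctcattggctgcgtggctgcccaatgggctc
In Cat and Echs1 the match reads in the direction of transcription, and in Etfa on the opposite strand. The Echs1 window also lies within the annotated span of Paox on the plus strand, outside its exons. The match lies 192 to 204 bases before the RefSeq start in Cat, 71 to 83 in Echs1 and 65 to 77 in Etfa. Each of the 3 matches holds 2 mismatches, the most allowed. All 3 genes fell, with log2 differences of -3.50, -3.02 and -3.10. So did most members, 30 of 32 being called lower, and the part of the motif was not tested.

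The carnitine shuttle carries acyl groups across the mitochondrial membranes. Of its 5 members 4 were lower, and the exception was Cpt1a, the liver form of the entry enzyme. Cpt2 encodes the inner membrane carnitine palmitoyltransferase (chromosome 4, 107903981 to 107923610, GRCm38). It stood at 86.6, 82.3, 97.5 and 91.1 FPKM in WAT 1 to WAT 4 and ran from 5.54 over a median of 6.44 to 7.48 FPKM in LPS. All 8 tumours lay in this narrow band, far below WAT, with a log2 difference of -3.62 ± 0.10 (SE; limma adjusted p = 2.27e-11). The WAT mean was 89.4 ± 6.51 FPKM (SD, n = 4) and the tumour mean 6.35 ± 0.666 FPKM (SD, n = 8), or 7.11% of it.

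Cpt1a and Cpt1b encode the outer membrane enzyme that malonyl-CoA inhibits, in its liver and muscle forms. Cpt1a stood at 12.9, 18.0, 14.8 and 8.96 FPKM in WAT 1 to WAT 4 and ran from 8.22 (LPS 3) over a median of 11.9 to 15.7 FPKM (LPS 1) in the tumours. The groups overlapped, with 1 tumour below all WAT libraries, and the log2 difference of -0.18 ± 0.21 did not pass (limma adjusted p = 0.50). Cpt1b, whose row is joined with Chkb, stood at 153, 149, 189 and 214 FPKM in WAT and ran from 17.2 (LPS 5) over a median of 25.7 to 30.4 FPKM (LPS 2) in LPS. Every tumour lay below every WAT library, with a log2 difference of -2.73 ± 0.16 (limma adjusted p = 1.89e-08). The part of muscle RNA in its WAT values was not tested. The ratio of Cpt1b to Cpt1a ran from 8.28 to 23.9 in WAT and from 1.25 to 3.00 in LPS. In the annotation, the joined row also spans a read-through gene, Gm44502, and reads of Chkb, a choline kinase gene, are part of its value.

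The other members of the shuttle fell without overlap. Slc25a20, the carnitine-acylcarnitine carrier of the inner membrane, averaged 87.3 ± 5.74 FPKM in fat (SD, n = 4) and 10.5 ± 2.77 FPKM in the tumours (SD, n = 8), lower by -2.98 ± 0.19 in log2. Crat, the carnitine acetyltransferase found in mitochondria and peroxisomes, went from 129 to 10.3 FPKM (-3.56 ± 0.17).

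The acyl-CoA dehydrogenases, which open each mitochondrial cycle and differ in the chain length they take, were all lower, but by very different amounts. Acadm, the medium-chain enzyme, had the largest fall of the 5. It stood at 364, 329, 399 and 393 FPKM in WAT and ran from 15.2 (LPS 5) over a median of 21.8 to 33.9 FPKM (LPS 1) in LPS. LPS 1 lay above the other tumours and yet far below WAT, and the log2 difference was -4.01 ± 0.16 (limma adjusted p = 7.15e-10). Acadl, for long chains, fell from 221 to 18.9 FPKM (-3.51 ± 0.16), and Acadvl, for very long chains and bound to the inner membrane, from 332 to 32.3 FPKM (-3.38 ± 0.22). Both were without overlap between the groups.

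Acads, the short-chain enzyme, moved least of the dehydrogenases, and its row is joined with Gm13826. In WAT 1 to WAT 4 it stood at 241, 207, 239 and 244 FPKM, and in LPS it ran from 128 (LPS 3) over a median of 144 to 241 FPKM (LPS 2). LPS 2 and LPS 5 reached into the WAT range, and the log2 difference was -0.55 ± 0.18 (limma adjusted p = 0.0228). This call did not hold under several settings. An exact permutation test over samples gave an adjusted p of 0.0580. In limma the adjusted p was 0.0806 with median-ratio scaling, 0.669 with quantile normalization and 0.192 without WAT 1 and WAT 4. Leaving out WAT 1, WAT 3 or WAT 4 alone gave 0.0631, 0.0631 and 0.0659. The row covers 115102923 to 115119346 on chromosome 5, where the annotation places Acads at 115110299 to 115119346 and the transcribed processed pseudogene Rpl37rt beside it. How much of the value belongs to Acads cannot be read from the table.

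Acadsb, which acts on branched short chains from amino acids as well, lay between 43.4 and 51.8 FPKM in WAT and between 11.5 and 36.5 FPKM in LPS. The groups did not overlap, and the log2 difference was -0.84 ± 0.29 (limma adjusted p = 0.0293), in a row far longer than the gene. Leaving out any 1 WAT library ended that call, with adjusted p of 0.0674, 0.0552, 0.0810 and 0.0616 for WAT 1 to WAT 4.

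The enzymes that complete the mitochondrial cycle, a hydratase, dehydrogenases of hydroxyacyl-CoA and thiolases, fell in 5 of 5 cases without overlap. Acaa2, the mitochondrial ketoacyl-CoA thiolase, had the largest fall of all 32 members. It stood at 437, 404, 512 and 398 FPKM in WAT and ran from 8.18 (LPS 6) over a median of 21.5 to 33.5 FPKM (LPS 3) in LPS. Its log2 difference was -4.40 ± 0.29 (limma adjusted p = 7.12e-08), and the WAT mean was 20.7 times the LPS mean. Hadh, the dehydrogenase for medium and short hydroxyacyl chains, went from 288 to 19.1 FPKM (-3.91 ± 0.22), and Echs1, the short-chain enoyl-CoA hydratase, from 171 to 20.3 FPKM (-3.02 ± 0.14).

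Hadha and Hadhb encode the alpha and beta subunits of the mitochondrial trifunctional protein, which works on long chains at the inner membrane. The genes lie head to head on chromosome 5, with 85 bases between their annotated starts. Hadha stood at 269, 240, 290 and 247 FPKM in WAT and ran from 46.5 (LPS 5) over a median of 63.1 to 80.8 FPKM (LPS 8) in LPS. No tumour reached the WAT range, and its log2 fall of -2.07 ± 0.15 (limma adjusted p = 1.30e-07) was the smallest in this role. Hadhb fell from 253 to 28.9 FPKM (-3.09 ± 0.16). The ratio of Hadhb to Hadha was 0.834, 0.946, 1.08 and 1.00 in WAT 1 to WAT 4 and 0.338 to 0.687 in LPS. In these rows the partners of this complex thus stood at like FPKM levels in WAT, and every tumour held less Hadhb than Hadha. The Hadha row is 1.39 times as long as the gene. Whether reads of neighbouring loci enter the ratio cannot be read from the table.

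Isomerases and a reductase prepare unsaturated chains for the cycle, and all 3 members fell. Eci1, a mitochondrial enoyl-CoA isomerase, stood at 139, 154, 176 and 166 FPKM in WAT and ran from 6.84 (LPS 5) over a median of 10.5 to 19.5 FPKM (LPS 3) in LPS. The groups were far apart, with a log2 difference of -3.74 ± 0.22 (limma adjusted p = 1.98e-08). Eci2, an isomerase found in mitochondria and peroxisomes, stood at 50.6, 46.4, 50.4 and 50.8 FPKM in WAT and ran from 15.1 (LPS 5) over a median of 27.3 to 29.7 FPKM (LPS 3) in LPS. It also fell without overlap, though by only -0.96 ± 0.16 (limma adjusted p = 0.00027).

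The electron transfer flavoprotein takes the electrons of the acyl-CoA dehydrogenases to the respiratory chain. Etfa, its alpha subunit, stood at 190, 187, 223 and 226 FPKM in WAT and ran from 18.0 (LPS 5) over a median of 23.5 to 28 FPKM (LPS 8) in LPS. That is a log2 difference of -3.10 ± 0.13 without overlap (limma adjusted p = 8.78e-10). Etfb, the beta subunit, in a row joined with mmu-mir-7051, stood at 336, 328, 357 and 383 FPKM in WAT and ran from 31.1 (LPS 6) over a median of 65.4 to 118 FPKM (LPS 3) in LPS. Its tumours were more uneven (coefficient of variation 41.9% against 14.7% for Etfa), and the log2 difference was -2.51 ± 0.30 (limma adjusted p = 1.41e-05). The ratio of Etfb to Etfa ran from 1.60 to 1.77 in WAT and from 1.56 to 4.33 in LPS, with overlap. Etfdh, the dehydrogenase that passes the electrons on to ubiquinone, fell from 133 to 18.6 FPKM (-2.81 ± 0.17).

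The 6 peroxisomal enzymes were all lower and differed widely in size. Ehhadh, the bifunctional hydratase and dehydrogenase known as a PPAR-alpha target, fell most. It stood at 27.7, 57.5, 40.7 and 14.8 FPKM in WAT and ran from 0.627 (LPS 5) over a median of 1.74 to 3.00 FPKM (LPS 7) in LPS. WAT itself was uneven for it, WAT 4 being lowest and WAT 2 highest, but no tumour came near, and the log2 difference was -3.59 ± 0.33 (limma adjusted p = 1.36e-06). Hsd17b4, the other bifunctional enzyme of the peroxisome, fell from 91.7 to 24.4 FPKM (-1.91 ± 0.19). Scp2, whose longer product is a thiolase for branched chains, fell from 172 to 26.8 FPKM (-2.66 ± 0.18), and Acox3, an oxidase for branched chains, from 21 to 9.05 FPKM (-1.15 ± 0.17).

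Decr2, the peroxisomal dienoyl-CoA reductase, fell least of these enzymes and overlapped between the groups. It stood at 7.73, 13, 14.3 and 11.8 FPKM in WAT and ran from 4.38 (LPS 5) over a median of 6.32 to 8.51 FPKM (LPS 8) in LPS. WAT 1 lay within the range of the tumours, the other WAT libraries above it, and the log2 difference was -0.76 ± 0.19 (limma adjusted p = 0.00645). Its mitochondrial counterpart Decr1 stood at 128, 108, 122 and 101 FPKM in WAT and ran from 6.99 (LPS 5) over a median of 10.6 to 16 FPKM (LPS 3) in LPS. Decr1 fell without overlap by -3.24 ± 0.19 (limma adjusted p = 2.72e-08). The ratio of Decr1 to Decr2 was 8.31 to 16.6 in WAT and 1.18 to 3.08 in LPS, so Decr1 remained the higher of the pair in every library.

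The thiolases changed order between the groups. Acaa1a, the peroxisomal ketoacyl-CoA thiolase, stood at 54.1, 45.1, 51.1 and 51 FPKM in WAT and ran from 12.1 (LPS 5) over a median of 24.9 to 28.2 FPKM (LPS 8) in LPS. It fell without overlap by -1.12 ± 0.18 (limma adjusted p = 0.00027). The ratio of Acaa2 to Acaa1a was 7.81 to 10.0 in WAT. In the tumours it was 1.16, 1.13, 1.28, 0.773, 1.11, 0.320, 0.943 and 0.733 for LPS 1 to LPS 8, so the peroxisomal transcript was the higher one in 4 of the 8 tumours. Acaa1a has a close paralogue, Acaa1b, and reads may be split between them. Its row also reaches far beyond the gene, so the order of the pair holds for these rows and may rest on other loci. None of these ratios was chosen without sight of earlier results, and they are given without a test.

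**Figure D4:**
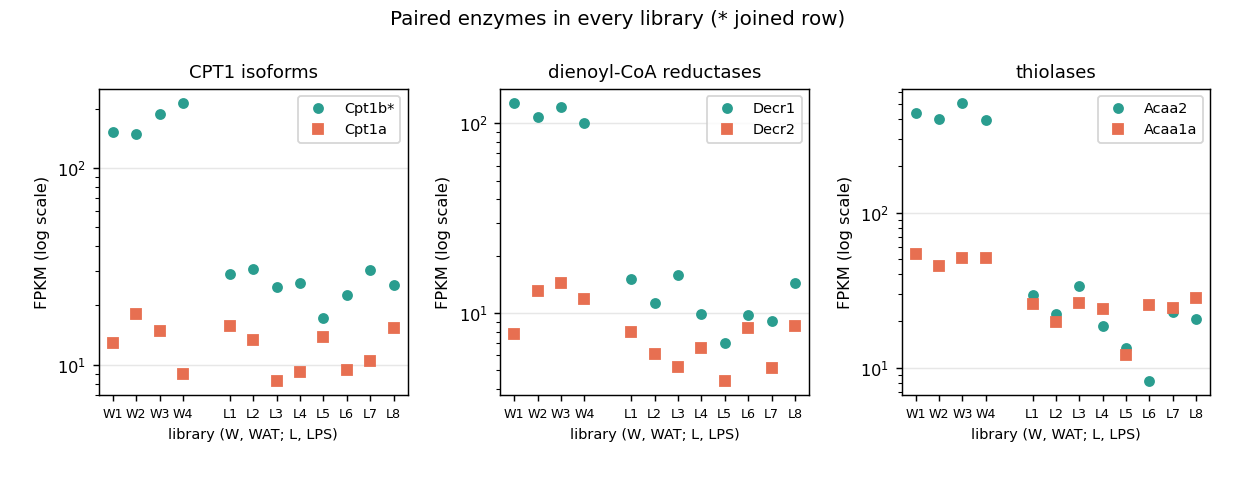
FPKM (log scale) of Cpt1b and Cpt1a, Decr1 and Decr2, and Acaa2 and Acaa1a in each WAT (W1 to W4) and LPS (L1 to L8) library. Circles lie far above squares in WAT, at ratios of 7.81 or more, and close to them in LPS, at ratios of 0.320 to 3.08.

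Of the peroxisomal half-transporters for acyl-CoA, Abcd2 fell further than Abcd3. Abcd2 stood at 67.3, 58.0, 63.5 and 43.0 FPKM in WAT and ran from 1.21 (LPS 8) over a median of 3.29 to 6.87 FPKM (LPS 6) in LPS. The groups were apart, with a log2 difference of -3.81 ± 0.29 (limma adjusted p = 2.71e-07). Abcd3 stood at 61.4, 56.2, 64.0 and 63.5 FPKM in WAT and ran from 12.4 (LPS 5) over a median of 20.2 to 23.5 FPKM (LPS 1) in LPS. It was also apart, with a log2 difference of -1.64 ± 0.15 (limma adjusted p = 1.06e-06). The ratio of Abcd2 to Abcd3 was 0.678 to 1.10 in WAT and 0.0610 to 0.336 in LPS.

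Catalase and the peroxisome's import and division factors showed log2 differences of unequal size. Cat, which breaks down the hydrogen peroxide of the oxidases, stood at 237, 236, 297 and 258 FPKM in WAT and ran from 15.2 (LPS 5) over a median of 20.2 to 36.9 FPKM (LPS 1) in LPS. Its log2 difference was -3.50 ± 0.22 without overlap (limma adjusted p = 4.16e-08). Pex5, the receptor that imports most matrix enzymes, stood at 43.2, 42, 49.1 and 29.2 FPKM in WAT and ran from 12.4 (LPS 5) over a median of 27.2 to 41.0 FPKM (LPS 1) in LPS. The groups overlapped, and the log2 difference of -0.64 ± 0.26 did not pass (limma adjusted p = 0.0644). It passed with array quality weights (adjusted p = 0.0108) and without LPS 1, LPS 8 or WAT 4 (adjusted p = 0.0295, 0.0462 and 0.0499).

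Pex11a, a PPAR-regulated factor of peroxisome elongation and division, was the most uneven member among the tumours. It stood at 17.6, 15.1, 24.1 and 19.3 FPKM in WAT, and at 6.39, 1.15, 12.0, 0.732, 0.630, 0.336, 6.74 and 2.38 FPKM in LPS 1 to LPS 8. LPS 1, LPS 3 and LPS 7 held the highest tumour values, and the groups did not overlap. The log2 difference was -2.51 ± 0.57 (limma adjusted p = 0.00304).

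The same tumours were high in Pparg, the receptor gene of fat cell differentiation. Pparg stood at 101, 70.4, 87.5 and 134 FPKM in WAT, and at 82.2, 3.56, 94.2, 10.3, 6.43, 2.93, 66.5 and 16.4 FPKM in LPS 1 to LPS 8. LPS 1, LPS 3 and LPS 7 held the 3 highest values of the 8 tumours in 6 members, Acaa2, Eci1, Acox3, Ehhadh, Abcd3 and Pex11a, which is 18.8% of the members against 7.37% of all rows tested. Their mature adipocyte marker sums, 2044, 1248 and 1103 FPKM, were also the highest, against at most 161 FPKM in the other 5 tumours. Fabp4 alone made up most of these sums, at 2000, 1229 and 1070 FPKM. Plin1 and Fabp4 were highest in LPS 1, and Plin4, Lipe and Pnpla2 in LPS 7. Adipoq, Cidec, Cfd, Retn and Lep were instead highest in LPS 5, with Cfd at 27.2 FPKM there. Brown marker sums in LPS 1, LPS 3 and LPS 7 were 8.24, 18.3 and 7.35 FPKM. The grouping of these 3 tumours was noticed in the data, and its part in the values was not tested. Their mitochondrial sums (444, 433 and 379 FPKM) overlap those of the other tumours (265 to 434 FPKM).

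Within LPS the members varied more than within WAT, with a median coefficient of variation of 25.4% against 9.02% in FPKM as deposited. The same was not taken over all rows, so it cannot be called particular to these members. LPS 5 held the lowest value of the 8 tumours for 24 of the 32 members as deposited and for 12 after median-ratio scaling. LPS 1, LPS 3 and LPS 8 each held the highest value for 8 members. No member passed a test for age. In limma with a slope per month over the 8 LPS libraries, 0 of 32 members were called, 0 were below an unadjusted p of 0.05, and the lowest unadjusted p was 0.276. Slopes ran from -0.13 to 0.16 on the log2 scale per month, 11 of them above 0. Among all 13280 rows tested, 0% were called and 1.72% had an unadjusted p below 0.05.

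Genes around the cycle, a list of 51 with 49 tested, mostly fell as well. Of these 40 were lower, 1 was higher and 8 were not called, with a median log2 difference of -1.36, while Acsl6 and Acox2 stayed below the filter. The acyl-CoA synthetases, which activate fatty acids, were mixed: 1 of 4 tested was lower. Acsl1, the main form in fat, fell from 618 to 7.44 FPKM (-6.23 ± 0.21; limma adjusted p = 1.54e-10), while Acsl5 was at 24.3 and 22.8 FPKM and did not pass (limma adjusted p = 0.746). Acsl3 (joined) and Acsl4 averaged 8.78 and 9.36 FPKM in WAT, against 17 and 16.4 FPKM in the tumours, without a call.

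Malonyl-CoA, the inhibitor of the Cpt1 enzymes, is made by acetyl-CoA carboxylases and removed by Mlycd. Of the 8 genes of this step and of transcriptional control, 7 were lower and 1 higher. Acacb, the carboxylase at the mitochondrial membrane, had the largest fall on the log2(FPKM + 1) scale, from 99.5 to 3.85 FPKM (-4.45 ± 0.30; limma adjusted p = 8.36e-08). Ppard, a PPAR of wide expression, was higher, at 8.42, 9.60, 8.35 and 10.2 FPKM in WAT and from 10.4 over a median of 17.2 to 29.6 FPKM in LPS. All 8 tumours lay above all WAT libraries, with a log2 difference of 0.89 ± 0.21 (limma adjusted p = 0.00335), and 11.8% of all rows tested were apart in this direction. By the ratio of means, Ppara and Ppargc1a fell further than Acacb. Singled out after their values were seen, Ppara fell from 26.3 to 0.938 FPKM, and Ppargc1a, the coactivator of mitochondrial biogenesis, from 9.53 FPKM to at most 0.0278 FPKM in any tumour. About 1 fragment of a transcript of 2 kb was worth 0.0221 to 0.0470 FPKM in these libraries, so Ppargc1a was at or near the limit of detection there.

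Of 12 other mitochondrial acyl-CoA enzymes 11 were lower, led on the log2(FPKM + 1) scale by Ech1, a dienoyl-CoA isomerase, from 389 to 56.0 FPKM (-2.86 ± 0.28; limma adjusted p = 2.58e-06). The exception was Oxct1, the enzyme that activates ketone bodies for use, with a WAT mean of 45.2 ± 10.0 FPKM (SD, n = 4), a tumour mean of 54.6 ± 12.3 FPKM (SD, n = 8) and a log2 difference of 0.26 ± 0.20 (limma adjusted p = 0.293). Among 11 other peroxisomal enzymes and transporters tested, 10 were lower, led by Phyh, the first enzyme of alpha-oxidation, from 109 to 13.5 FPKM (-2.91 ± 0.13; limma adjusted p = 1.87e-09). Crot (joined), a carnitine octanoyltransferase, was not called at 17.8 and 13.7 FPKM. Of 14 genes of peroxisome biogenesis 11 were lower, with a median of -0.91, led by Pex16, a membrane assembly factor, from 61.8 to 7.07 FPKM (-2.97 ± 0.20; limma adjusted p = 1.06e-07).

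**Figure D5:**
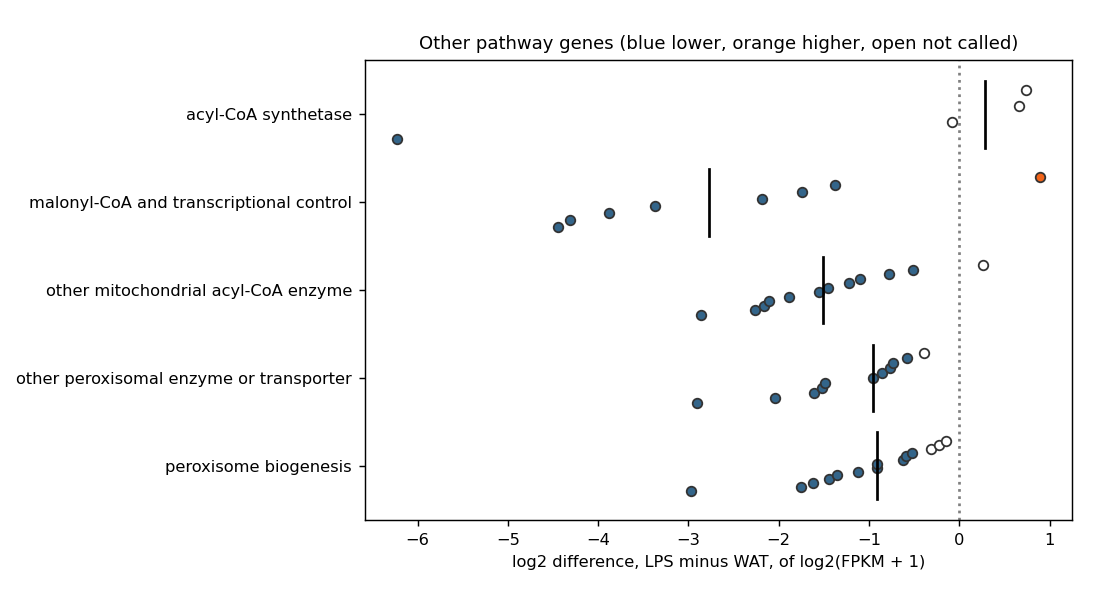
Log2 difference, LPS minus WAT, on the log2(FPKM + 1) scale of the 49 tested genes around the cycle, 1 point per gene by role, with a black bar at the median of each role. Blue marks genes called lower, orange the gene called higher (Ppard) and open points those not called; the control genes have a median of -2.77 and peroxisome biogenesis one of -0.91.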

How the data were processed

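Per the labels' protocols, ribosomal RNA was removed from the total RNA of 12 frozen tissue samples before stranded library preparation. The authors deposited FPKM values, with a row for each gene locus. The submitters' processing notes name GRCm38 as the build, and Cuffdiff 2.2.1, Cufflinks 2.2.1, TopHat2 2.1.0, Bowtie2 and Trimmomatic as tools, without their roles. Any further scaling of the deposited FPKM across libraries is not given in the sources that were used. Fragment totals and counts are not part of the table, so no counting interval is given, and a listed 0 can be a failed estimate. Overlapping loci can share a row (828 joined rows), and reads shared by near-identical copies may be split.

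The comparison of LPS with WAT was fitted with limma (3.58.1, R 4.3.3) to log2(FPKM + 1), with a mean-variance trend, robust empirical Bayes, two-sided p-values and Benjamini-Hochberg adjustment at 0.05. A row was tested if 4 or more of the 12 libraries reached 1 FPKM. With a pseudocount of 1, differences are understated where levels are low, most of all at about 1 FPKM or less. Levels of several FPKM are touched too: with a pseudocount of 0.1, Cpt2 (LPS mean 6.35 FPKM) moved from -3.62 to -3.80. Age was fitted within LPS as a slope per month, with the filter over those 8 libraries. Tables were built with Python 3.11.15 and pandas 2.3.3, and the fit was tested on simulated data. No 2 libraries held the same values. Where nothing in the labels says that samples came from separate animals, p-values measure the spread between these samples only. Coordinates are those of GENCODE M21, on the same build.

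The members and lists were chosen with earlier results of these data known, and no list was tested as a set. In each role, values by library are given for the members with the largest and smallest difference, for those not called or overlapping, and for the pairs Cpt1a and Cpt1b, Decr1 and Decr2, and Acaa2 and Acaa1a. Of the other pathway genes, each role gives the largest fall, any gene called higher and the most abundant one not called, and a gene named by this rule is not reported here. Hadhb, Pex11a, Ppara, Ppargc1a, Acsl3 and Acsl4 were chosen once their values were known. Alternatives were other pseudocounts, filters and scalings, plain empirical Bayes, array quality weights and an exact permutation test over 495 groupings. Others were a replicate block, leaving out libraries, and leaving out Crat, Eci2 and Acadsb. Leaving out WAT 1 and WAT 4 together, leaving out joined rows and the fit of replicates 1 to 4 without the block were added after the data were seen. Promoter windows of Acaa2, Hsd17b4, Crat, Abcd2, Decr1 and Cpt1b, and protein sequences, were not used here.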

Additional observations from a re-analysis of the deposited data

Results flagged for a closer look

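In 5 of 64 groups of values (the 32 members in WAT and in LPS), a single library lay far from the others by Dixon's criterion at 95%, and chance alone flags about 1 group in 20. Acadm was highest in LPS 1 at 33.9 FPKM, with the next tumour at 24.1 FPKM. Acads (joined row) was lowest in WAT 2 at 207 FPKM, with the next WAT library at 239 FPKM. Eci2 was lowest in WAT 2 at 46.4 FPKM, with the next at 50.4 FPKM. Eci2 was lowest in LPS 5 at 15.1 FPKM, with the next tumour at 23.4 FPKM. Echs1 was lowest in LPS 5 at 13.4 FPKM, with the next tumour at 19.4 FPKM. LPS 5 is the library whose rows read low as deposited, at a scaling factor of 0.814, and its part in the last pair of values was not tested.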

How the results depend on the processing

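Mitochondrial members called lower numbered 18 to 20 of 21 under the alternatives that kept all of them. They numbered 17 of 18 without joined rows, and also without Crat, Eci2 and Acadsb. Peroxisomal members called lower numbered 9 to 11 of 11. These counts, and those of 0 called higher and 0 for age, held within 1.5 times under every alternative run. Quantile normalization moved the mitochondrial median from -3.09 to -2.79, the median of all rows from -0.05 to 0.10 and the lower share of all calls from 58.8% to 45.2%. Of the other pathway genes, 1 (Ppard) was called higher; it was 3 with array quality weights or quantile normalization and 2 with median-ratio scaling, a pseudocount of 0.1 or a filter at 5 FPKM, and it ranged from 1 to 3 when libraries were left out in turn (3 without LPS 1; 2 without LPS 2, LPS 5 or LPS 8). Acsl4 and Acsl3 made up the additions. Over the 32 members and all alternatives, 779 of 800 values kept direction and call, 17 lost the call (Acads 9, Acadsb 7, Decr2 1), 4 gained it (Pex5) and 0 reversed; why was not tested. Without WAT 1 and WAT 4, all rows gave 2114 lower and 1402 higher, against 4007 and 2806, with fewer samples, and 18 mitochondrial and 10 peroxisomal members were lower. Replicate numbers showed little sign of pairing the samples: correlations of same-numbered deviations were -0.02 to 0.09, and 2 of 4 numbers correlated best with themselves. With only 4 numbers, this check cannot decide whether any samples were paired. With the replicate block, over replicates 1 to 4, 19 mitochondrial, 9 peroxisomal and 37 other genes were lower and 2 others higher, and Decr2 was at an adjusted p of 0.0516 (limma). Without the block the same samples gave 19, 10 and 38 lower. Depth limits values near the worth of 1 fragment, as for Ppargc1a in LPS.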

Other observations

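Genes of the nuclear-encoded respiratory chain, taken by symbol (Nduf, Sdh, Uqcr, Cox and Atp5 families) after results were seen, fell less by their median than the mitochondrial oxidation genes. Of 86 tested, 81 were lower and 2 higher in LPS (limma), with a median log2 difference of -1.62 against -3.09. Their log2 differences ran from -8.66 to 5.32. Choice by symbol also admits assembly factors, and it took Cox7a1 and Cox8b of the brown marker list. The difference between the lists was not tested.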
